A study of Mus musculus with 8 samples.

Results

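The genes described here handle vitamin C (ascorbate) in mouse kidney. They are the 3 enzymes of the last steps of ascorbate synthesis, *Akr1a1*, *Rgn* and *Gulo*, and the 3 genes of the SLC23 transporter family, *Slc23a1*, *Slc23a2* and *Slc23a3*. They were chosen by symbol, 6 of the 55401 genes listed for each kidney, after the difference in *Gulo* between genotypes had been seen in these same data. The difference between genotypes in these genes is therefore given as a description, and no p-value is printed for it.

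Whole kidneys of 8 mice, 4 in each of 2 groups, were profiled by RNA-Seq. Salt-inducible kinases (SIKs) are encoded by *Sik1*, *Sik2* and *Sik3*. In control mice both copies of each of these genes were floxed, that is flanked by loxP sites (SIK1f/f, SIK2f/f and SIK3f/f), and no Cre recombinase was present. SIK mutant mice carried, per the labels, those same floxed alleles of all 3 genes together with Six2-Cre. The study's text describes the surviving mutants with only 1 floxed *Sik1* allele, so the *Sik1* genotype of the mutants is uncertain. Six2-Cre acts in nephron progenitors and is inherited by the podocytes and tubule cells that descend from them. Stromal, endothelial and blood cells of the kidney, and the collecting duct, come from other progenitors and still hold intact alleles. Controls were littermates without Cre per the study's methods. The labels give no age, sex or litter, so which of these mice shared a litter is not known.

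Expected counts summed to between 10179648 and 10925100 per kidney. The proximal tubule list was abundant in all 8 kidneys (7216 to 11077 CPM, read counts scaled to library size, summed over 7 markers), which fits the tissue label. *Sik3* was between 58.6 and 66.5 CPM in controls and between 33.7 and 43.1 CPM in mutants, without overlap. *Sik2* overlapped between the groups (9.14 ± 0.841 and 6.72 ± 2.07 CPM, SD, n = 4 each). *Sik1* was slightly higher in mutants (40.8 ± 2.84 and 50.6 ± 4.85 CPM), and a count over a whole gene does not check the loss of a floxed part. Control 3 and control 4 had *Xist* reads and at most 1 read of each of 4 Y-linked genes, while the other 6 kidneys had Y-linked reads and nearly no *Xist*. By these sex-linked genes controls 3 and 4 read as female and the other 6 kidneys as male, which the labels do not state. All 4 mutants were of the second kind, so genotype is partly confounded with this difference. Values from the 6 kidneys with Y-linked reads therefore stand beside several results.

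Most mammals make ascorbate from glucose by way of glucuronate. Akr1a1, an aldehyde reductase, turns glucuronate into gulonate. Rgn (regucalcin), acting as a lactonase, closes gulonate into gulonolactone, and Gulo (gulonolactone oxidase) oxidizes this to ascorbate. In mice the pathway runs mainly in the liver, and humans lack a working *GULO* gene. The kidney recovers filtered ascorbate in the proximal tubule through SVCT1, the product of *Slc23a1*, whereas SVCT2, the product of *Slc23a2*, carries ascorbate into most other cells. The product of *Slc23a3* belongs to the same family by sequence.

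*Gulo* (ENSMUSG00000034450.8) lies on the reverse strand at chr14:65986786-66009207 (GRCm38) and overlaps no other annotated gene. Its 1 annotated transcript has 12 exons, a length of 2263 bases and a coding sequence of 1323 bases, or 440 codons before the stop. The start of that coding sequence is shown because the reads of this transcript carry the difference between genotypes. The capitals mark the start codon, whose 3 bases end exon 1 (the first lies at position 66009047 of chromosome 14), and the other 102 bases are the whole of exon 2, chr14:66008039-66008140.
Gulo coding bases 1 to 105: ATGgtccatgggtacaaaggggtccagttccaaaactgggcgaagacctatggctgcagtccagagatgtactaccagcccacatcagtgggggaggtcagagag

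*Gulo* mRNA was scarce in control kidneys and higher in every SIK mutant kidney. The controls had 1, 3, 4 and 3 *Gulo* reads and the mutants 15, 28, 37 and 20 reads. All 4 mutants thus lay above all 4 controls, and mutant 3 was the highest. Control counts were close to 3 reads, the floor that a count of 0 would allow, which is 0.263 to 0.304 CPM in these libraries.

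**Figure D1:**
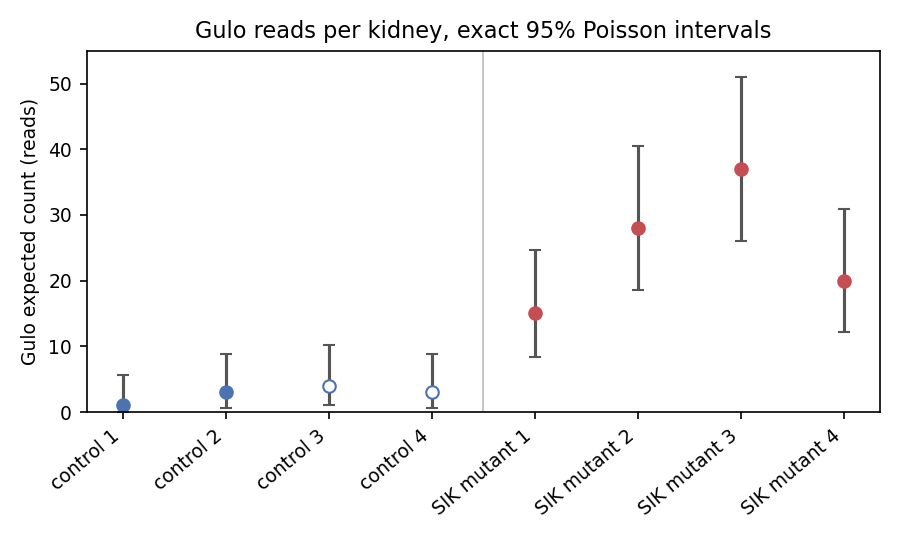
Expected *Gulo* counts (reads, vertical axis) in each of the 8 kidneys, with exact 95% Poisson intervals that cover counting error only. Blue points are controls, open where the kidney had no Y-linked reads, and red points are SIK mutants. The 4 controls sit between 1 and 4 reads and the 4 mutants between 15 and 37 reads.

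On the CPM scale, which takes out library size, the controls measured 0.101, 0.296, 0.352 and 0.263 and the mutants 1.32, 2.50, 3.58 and 1.92. The means were 0.253 ± 0.108 and 2.33 ± 0.962 CPM (SD, n = 4 each). The groups did not overlap, and the spread among mutants was wider than the whole range of controls. edgeR gave a log2 fold change of 3.12 with a standard error (SE) of 0.44. That fitted value leans on a prior count where controls hold 1 to 4 reads. The ratio of summed counts, 100 reads against 11 with library size taken into account, was 8.98, with an exact 95% interval for counting error of 4.81 to 18.6. Among the 6 kidneys with Y-linked reads it was 11.5 (interval 4.37 to 43.2), from 100 reads against 4. Without any 1 kidney the log2 fold change lay between 2.85 and 3.32. On the log2(TPM + 1) scale the difference was 0.96, since adding 1 compresses so low a gene.

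All 6 genes passed the filter on low counts, *Gulo* through the mutants alone. With edgeR at a false discovery rate (FDR) under 0.05, 0 of the 6 genes were called, against 0.0% of 14326 genes tested. At an unadjusted p under 0.05 edgeR listed 911 genes (6.36% of those tested), 1 of the 6 among them. DESeq2 called 1 of the 6, *Gulo*, against 0.386% of 18372 genes. The kidneys of both groups failed to overlap for 1 of the 6 genes, again *Gulo*, against 4.03% of all genes tested. A log2 fold change of at least 3 toward mutants was found for 0.0419% of genes, 6 in number, with *Gulo* as 1 of them. Because *Gulo* was chosen with this contrast in view, these shares are printed beside it and nothing is read from them.

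With all kidneys included, the genes on either side of *Gulo* did not share its pattern of separate groups. *Clu*, which encodes the secreted chaperone clusterin and ends 5239 bases away, measured 318 ± 55.8 CPM in controls and 292 ± 54.99 CPM in mutants, and its ranges overlapped. *Ephx2*, which encodes soluble epoxide hydrolase, also overlapped (113 to 339 CPM in controls and 201 to 251 CPM in mutants). That overlap rests on the controls without Y-linked reads. Among the 6 kidneys with Y-linked reads, *Ephx2* was 339 and 271 CPM in controls, above every mutant. Its log2 fold change there was −0.43 (SE 0.12), opposite in sign to *Gulo*. *Scara3* was at most 1.15 CPM, with overlap, and *Adam2*, a gene of sperm, had no read in any kidney. Once controls 3 and 4 were set aside, *Scara3* differed by 1.56 in log2 fold change (SE 0.70), with the sign of *Gulo*. That value rests on 2 and 3 reads in controls 1 and 2 and on 13, 10, 3 and 7 reads in the mutants. *Clu* turned from −0.12 (SE 0.17) over all kidneys to 0.12 (SE 0.17) in the smaller set.

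*Rgn*, the enzyme one step before Gulo, was low and alike in level in both groups. Its gene lies on the forward strand at chrX:20549787-20562089. It measured 2.94, 2.96, 2.55 and 2.63 CPM in controls and 2.82, 2.59, 2.03 and 2.79 CPM in mutants. The groups overlapped, mutant 3 was the lowest kidney for *Rgn* and the highest for *Gulo*, and the log2 fold change was −0.11 (SE 0.19). Mean levels were 2.77 ± 0.212 and 2.56 ± 0.365 CPM (SD, n = 4 each).

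*Akr1a1*, which supplies gulonate and reduces many other aldehydes, was the most abundant of the 6 genes. It lies on the reverse strand at chr4:116636510-116651680. Controls measured 1984, 2129, 1396 and 1475 CPM and mutants 1639, 1674, 1710 and 2113 CPM. The mutants lay inside the range of the controls, with means of 1746 ± 365 and 1784 ± 221 CPM (SD, n = 4 each), and edgeR's log2 fold change was 0.03 (SE 0.16). The controls themselves split into a higher and a lower pair. Controls 1 and 2, with Y-linked reads, averaged 2057 CPM and controls 3 and 4, without them, 1435 CPM. With controls 3 and 4 left out together, the log2 fold change had the opposite sign, −0.20 (SE 0.13).

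**Figure D2:**
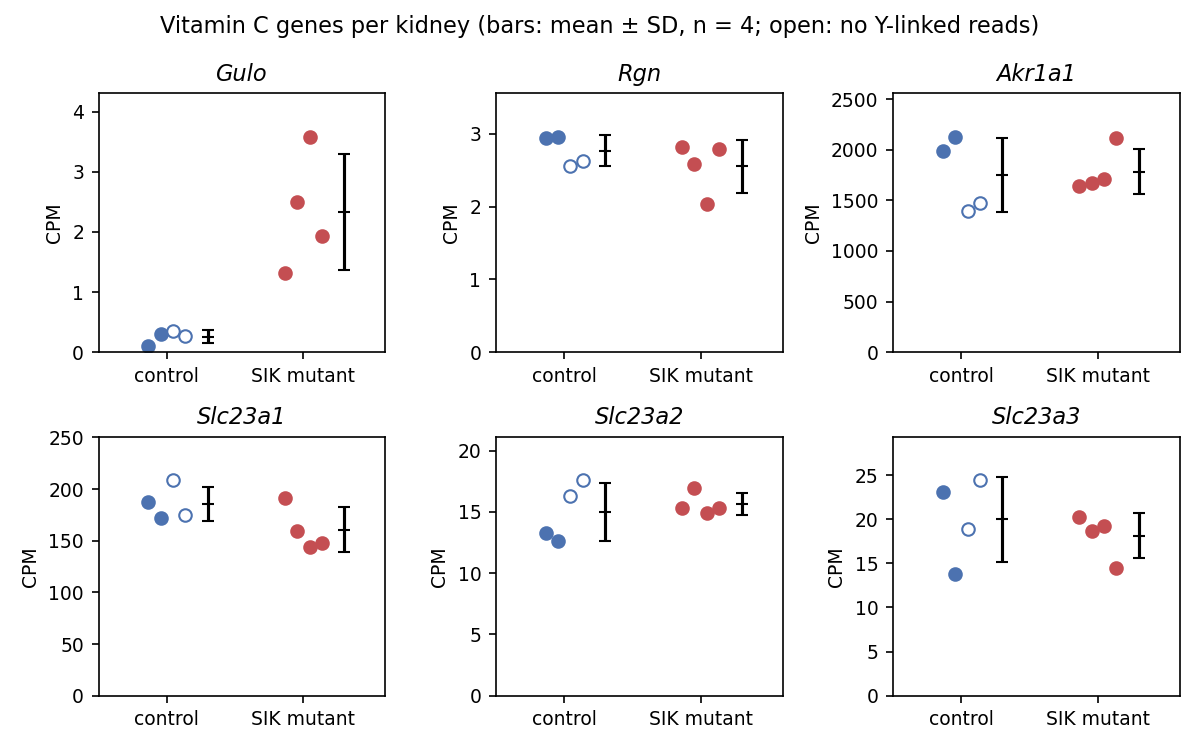
CPM (vertical axis, from 0, with its own scale in each panel) of the 6 genes in each kidney, with mean ± SD for n = 4 per group. Open circles are the 2 controls without Y-linked reads. *Gulo* is the panel in which the groups do not overlap, with controls at 0.101 to 0.352 CPM and mutants at 1.32 to 3.58 CPM.

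*Slc23a1*, the reabsorbing transporter of the proximal tubule, was abundant in both groups. It lies on the reverse strand at chr18:35614604-35627244, and part of it overlaps *Paip2* on the other strand. Whether reads were counted by strand is not given in the sources used here. Controls measured 187, 172, 209 and 174 CPM and mutants 191, 160, 144 and 148 CPM. In 3 of 4 mutants the CPM was below every control, while mutant 1 lay among the controls. In TPM only mutant 4 was below every control (64.5 to 89.9 in controls and 57.95 to 83.4 in mutants). The means were 186 ± 16.7 and 161 ± 21.4 CPM (SD, n = 4 each). The log2 fold change, −0.21 (SE 0.11), ranged from −0.30 to −0.15 when any 1 kidney was left out. On the log2(TPM + 1) scale it was −0.06 (SE 0.14).

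*Slc23a2*, the more widespread ascorbate transporter, lies on the reverse strand at chr2:132052496-132145108 and overlaps a pseudogene and an antisense gene on the forward strand. It measured 13.3, 12.6, 16.3 and 17.6 CPM in controls and 15.4, 16.9, 14.9 and 15.3 CPM in mutants. The groups overlapped, at 14.96 ± 2.37 and 15.6 ± 0.899 CPM (SD, n = 4 each), and differed by 0.06 in log2 fold change (SE 0.13). Here too the controls formed pairs, in the opposite order to *Akr1a1*. Controls 1 and 2 averaged 13.0 CPM and controls 3 and 4 averaged 16.9 CPM. Without that second pair every mutant lay above both controls, by 0.28 in fitted log2 fold change (SE 0.12).

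*Slc23a3*, on the reverse strand at chr1:75125541-75133890, varied most among the 5 genes other than *Gulo* (coefficient of variation 19.4% over 8 kidneys). Controls measured 23.0, 13.7, 18.8 and 24.4 CPM and mutants 20.3, 18.6, 19.2 and 14.4 CPM. The mutants lay within the control range, with a log2 fold change of −0.14 (SE 0.18), which was −0.006 (SE 0.22) without controls 3 and 4. Another mouse gene of the family, *Slc23a4*, had at most 0.265 CPM in any kidney, below or at the floor of 3 reads.

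The SLC23 family members were compared in sequence, since reads from near-identical genes can be shared between them. In pairwise global alignment 71.6% of aligned coding positions were identical between *Slc23a1* and *Slc23a2*, 64.0% between *Slc23a1* and *Slc23a3*, and 65.1% between *Slc23a2* and *Slc23a3*. The longest exact run shared by any pair of transcripts was 20 bases. RSEM's posterior SD of the count was 0 for all 6 genes in all 8 kidneys.

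Levels of different genes were compared in TPM, transcript abundance scaled to transcript length and library. Averaged over 8 kidneys they were 1545 ± 163 for *Akr1a1*, 72.7 ± 10.4 for *Slc23a1*, 11.02 ± 2.42 for *Slc23a3*, 2.80 ± 0.608 for *Slc23a2*, 2.002 ± 0.179 for *Rgn* and 0.69 ± 0.70 for *Gulo* (SD, n = 8). In mean TPM *Akr1a1* ranked 38 and *Gulo* 14452 among the 55401 genes listed, of which 25276 had a TPM above 0 in at least 1 kidney. Transcript levels of the 3 synthesis enzymes were thus strongly unequal in kidney, which does not give the activity of any step. *Akr1a1* exceeded *Gulo* in every kidney, by 816 times in mutant 3, where the ratio was smallest.

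The upper 3 genes kept their order in all 8 kidneys, and their ranges of TPM did not touch. Below them, *Slc23a2* (1.97 to 3.51 TPM) and *Rgn* (1.63 to 2.25 TPM) overlapped, and in control 2 *Rgn* was above *Slc23a2*. *Gulo* was below *Rgn* in every control, at 0.05 to 0.19 TPM. In mutants it measured 0.72 to 1.95 TPM, and in mutant 3 it was above *Rgn*. Within the SLC23 family *Slc23a1* made up 80.4% to 87.4% of summed TPM in every kidney.

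**Figure D3:**
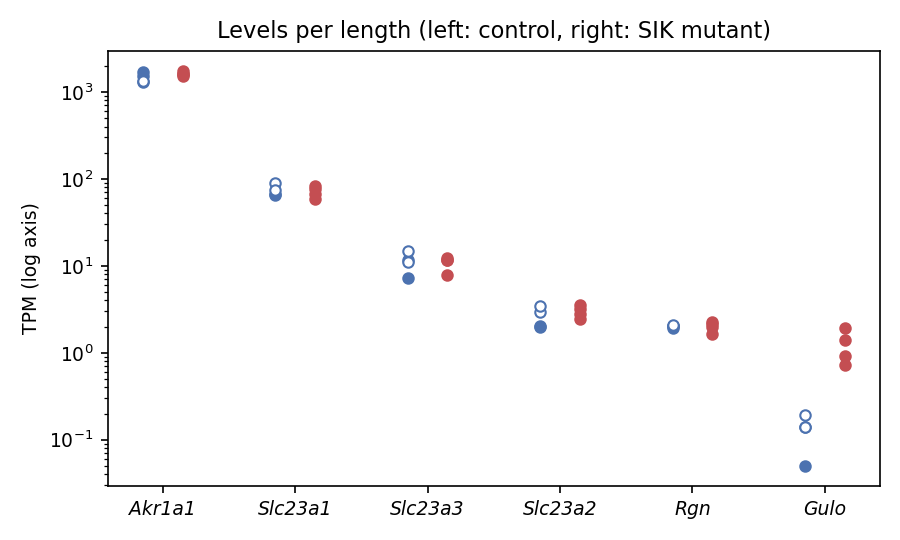
TPM (vertical log axis) of the 6 genes in 4 controls (blue, left; open where no Y-linked reads were found) and 4 SIK mutants (red, right), 1 point a kidney. The genes span from 0.05 TPM for *Gulo* in control 1 to 1764 TPM for *Akr1a1* in mutant 4, and *Gulo* alone has separate groups.

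Bulk RNA does not say whether more cells held *Gulo* mRNA or each cell held more of it, and these cannot be told apart here. Markers of other cells were read beside it. The summed hepatocyte list (7 genes) was 37.0 to 149 CPM in controls and 370 to 510 CPM in mutants, without overlap. *Ttr* made up most of it in every kidney, with the smallest part in control 3. *Ttr*, which encodes transthyretin, a hormone carrier in plasma, measured 92.6, 141, 19.8 and 45.1 CPM in controls and 437, 452, 359 and 499 CPM in mutants. The other 6 hepatocyte genes summed to 7.90 to 18.6 CPM in controls and 9.63 to 12.9 CPM in mutants. Of these, *Ahsg* and *Cps1* had at most 2 reads in any kidney, and *Alb*, albumin, was at most 9.69 CPM, in control 3.

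Adipocyte markers moved with the groups except in 1 control. The 5 genes summed to 0, 2.77, 132 and 26.5 CPM in controls 1 to 4 and to 91.1 to 147 CPM in mutants. Control 3 thus had an adipocyte level within the range of mutants, with *Gulo* at 0.352 CPM. The part of fat cells in the *Gulo* difference was not tested further. Adrenal cortex markers were at most 3.502 CPM in sum, and *Cyp11b1*, a steroid hydroxylase, had no read. Summed proximal tubule markers overlapped (7216 to 11077 CPM in controls, 7791 to 9290 CPM in mutants). That overlap rests on controls 3 and 4, at 7216 and 7998 CPM. Controls 1 and 2, with Y-linked reads, had 10934 and 11077 CPM, above every mutant. The 7 genes did not move as 1. *Slc5a2*, the glucose transporter of the early proximal tubule, was 454 to 555 CPM in controls and 315 to 321 CPM in mutants, without overlap. Means of 2 of the 7 were higher in mutants, with overlapping groups: *Slc22a6*, an organic anion transporter (929 and 1161 CPM), and *Slc7a13*, an amino acid transporter of the late proximal tubule (264 and 476 CPM). In controls 1 to 4 *Slc22a6* was 1523, 1347, 415 and 429 CPM and *Slc7a13* 652, 398, 2.29 and 2.28 CPM. The lower control means of both genes thus rest on controls 3 and 4, the kidneys without Y-linked reads. What part these have in the *Gulo* difference was not tested.

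The genes most like *Gulo* over the 8 kidneys were sought among 12920 protein-coding genes by Pearson r of log2 CPM. The closest were *Slc13a1*, which encodes a sodium-sulfate cotransporter of the renal tubule (r = 0.98), *Alcam*, a cell adhesion molecule (0.96), and *Rnase4*, a secreted ribonuclease (0.95). The most opposite were *Tmem8b* (−0.96), *Ppp1r11*, an inhibitor of protein phosphatase 1 (−0.95), and *Srcin1*, an adaptor that restrains Src kinase (−0.95). Since the points form 2 groups by genotype, part of each r reflects the difference between groups alone. In all, 27 genes passed 0.9 and 27 lay below −0.9. *Slc13a1* was 218, 249, 244 and 240 CPM in controls and 318, 379, 413 and 323 CPM in mutants. The 4 mutants stood in the same order for *Slc13a1* as for *Gulo*, with mutant 3 the highest and mutant 1 the lowest. Mutants 1 and 4 were close for *Slc13a1*, at 318 and 323 CPM. *Slc13a1* was picked by its r over these same 8 kidneys, so the shared order is no separate support. None of the other 5 vitamin C genes came near these values: their r with *Gulo* ran from −0.68 for *Slc23a1* to 0.32 for *Slc23a2*.

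**Figure D4:**
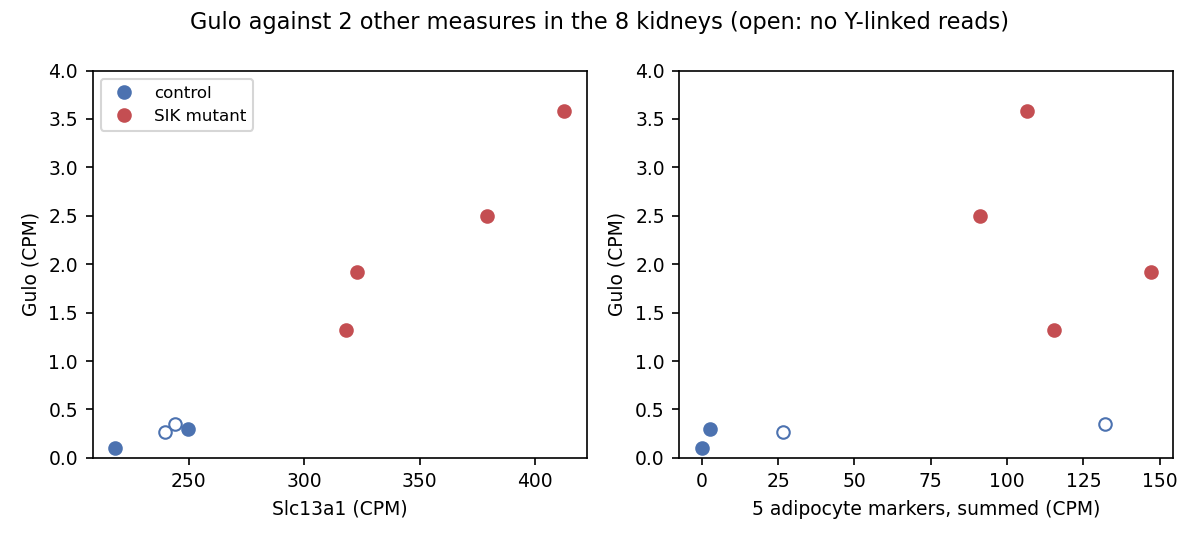
*Gulo* (CPM, vertical axes) against *Slc13a1* (CPM, left) and against the sum of 5 adipocyte markers (CPM, right), 1 point a kidney; open points are controls without Y-linked reads. In the right panel control 3, an open point, has 132 CPM of adipocyte markers, within the range of the mutants, and *Gulo* at 0.352 CPM. The controls with Y-linked reads have 0 and 2.77 CPM of these markers, below every mutant.

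The wider vitamin C network was described with 41 further genes in 3 lists. With edgeR, 0 of the 36 genes that could be tested were called in either direction at FDR under 0.05, where 0.0% of all genes tested were called, and 10 of the 36 had an unadjusted p under 0.05, against 6.36% of all genes tested. DESeq2 called 1 of them, *P3h2*, where it called 0.386% of all genes, and called 0 of them in the 6 kidneys with Y-linked reads. The median log2 fold change over all genes tested was −0.0038.

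Of the 8 genes listed for glucuronate supply and disposal, all were tested, 4 had positive and 4 negative log2 fold changes, and the median was −0.017. *Ugdh*, which makes UDP-glucuronate, measured 66.7 ± 7.42 CPM in controls and 79.4 ± 3.86 CPM in mutants (SD, n = 4 each; log2 fold change 0.25, SE 0.09, edgeR FDR 0.715). *Miox*, the renal oxygenase that makes glucuronate from inositol, measured 2148 ± 289 and 1697 ± 88.6 CPM (−0.34, SE 0.12, edgeR FDR 0.713). Both genes had overlapping groups. In the 6 kidneys with Y-linked reads the list's median was −0.27.

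Of the 13 genes listed for dehydroascorbate uptake and ascorbate recycling, 11 were tested, and their median log2 fold change was −0.028. *Slc2a3* and *Gsto2* had too few reads. *Gsr*, glutathione reductase, was 144, 134, 83.6 and 102 CPM in controls and 163, 160, 163 and 167 CPM in mutants, so the groups did not overlap (log2 fold change 0.49, SE 0.16, edgeR FDR 0.678). Controls 3 and 4 were again the lower pair, and without that pair the log2 fold change was 0.24 (SE 0.08). *Txnrd1*, the cytosolic thioredoxin reductase, overlapped at 100 ± 19.8 and 124 ± 13.2 CPM (0.30, SE 0.15, edgeR FDR 0.794, and 0.11, SE 0.12, without controls 3 and 4). *Txnrd2*, its mitochondrial counterpart, did not overlap (24.5 to 26.4 CPM in controls and 21.1 to 22.4 CPM in mutants). Its log2 fold change was −0.24 (SE 0.07, edgeR FDR 0.608).

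Of the 20 enzymes that use ascorbate as a cofactor, 17 were tested, with a median log2 fold change of −0.0080. *P4ha3* and *Dbh* had too few reads, and *Tmlhe* was not analysed here. The lowest value belonged to *Hpd*, a dioxygenase of tyrosine breakdown, at 19.7, 17.3, 248 and 126 CPM in controls and 11.8 to 26.3 CPM in mutants. Only the 2 controls without Y-linked reads were high. The log2 fold change of −2.28 (SE 0.78, edgeR FDR 0.702) became 0.21 (SE 0.29) without those controls. *P3h2*, a prolyl hydroxylase of collagen, was 99.7, 90.4, 183 and 134 CPM in controls and 68.8 to 78.2 CPM in mutants. Its groups did not overlap (−0.80, SE 0.20, edgeR FDR 0.456, DESeq2 FDR 0.0407), and without controls 3 and 4 the value was −0.38 (SE 0.09) and the DESeq2 FDR 0.135. *Plod2*, a lysyl hydroxylase of collagen, lay the other way without overlap (30.6 to 52.3 CPM in controls and 54.9 to 63.8 CPM in mutants). Its log2 fold change was 0.56 (SE 0.15, edgeR FDR 0.509), and 0.33 (SE 0.11) without controls 3 and 4.

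**Figure D5:**
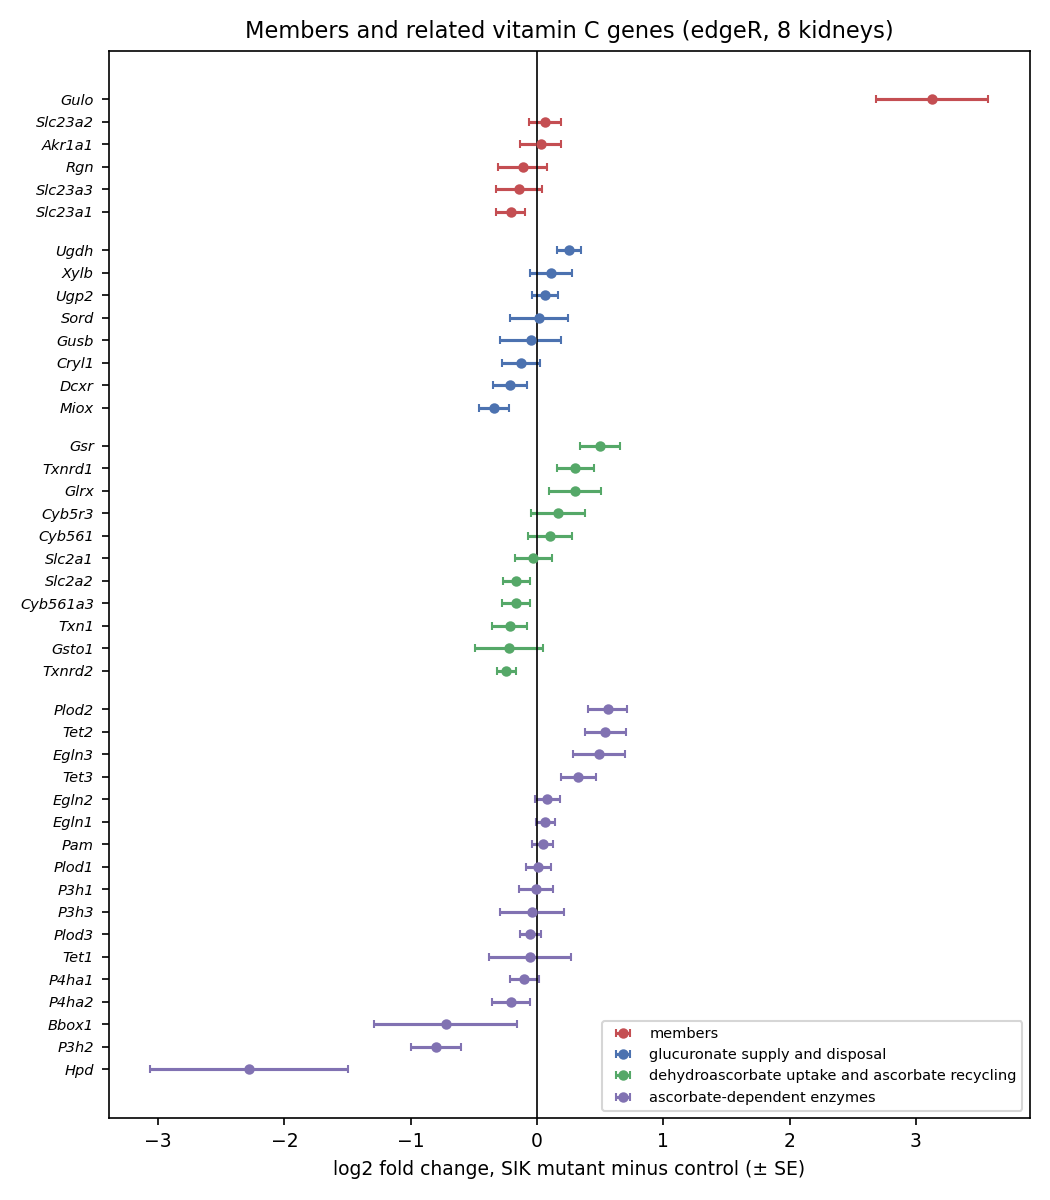
edgeR log2 fold changes (SIK mutant minus control, horizontal axis, ± SE, 8 kidneys) of the 6 vitamin C genes (red) and of the 36 tested genes of the 3 related lists. *Gulo* stands at 3.12, the other 5 lie between −0.21 and 0.06, and *Hpd* at −2.28 rests on the 2 controls without Y-linked reads.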

How the data were processed

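Whole-kidney RNA-Seq of 4 control and 4 SIK mutant mice was used, grouped by the labels' titles. The submitters' processing notes name FastQC, STAR 2.7.2b, RSEM 1.3.0, DESeq2 and build mm10, with no roles given. The authors deposited RSEM expected counts (not normalized), TPM, and 2 other values, effective lengths and posterior SDs, per gene and kidney. Whether strand was used is not given in the sources used here. Of 55401 gene IDs, 55141 matched GENCODE M21 (GRCm38), the source of symbols, coordinates and sequence.

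Expected counts were rounded and tested with edgeR 4.0.16 (quasi-likelihood F test, TMM factors, filterByExpr, Benjamini-Hochberg over 14326 genes) in R 4.3.3, with no covariate, and the scripts were tested on simulated data. SEs follow from the F statistic. CPM uses TMM-scaled totals. Intervals cover counting error only. DESeq2 1.42.0, limma 3.58.1 (voom, and trend on log2 of TPM plus 1 or 0.1), other filters, left-out kidneys, a replicate block, a Y-linked covariate and kidneys with Y-linked reads served as alternatives. DESeq2 on the last set was chosen after seeing the data.

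The 6 genes, the 3 related lists and the marker lists were chosen with earlier results of these data known. All 6 genes are named. From each related list the genes called, or otherwise the 2 with the largest absolute log2 fold change, were named, with *Txnrd2* and *Plod2* added after their values were seen, and for likeness to *Gulo* the 3 highest and 3 lowest r at a mean of at least 1 CPM. Replicate numbers were not used as pairs in the main test, and whether they mark littermates is not known.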

Additional observations from a re-analysis of the deposited data

Results flagged for a closer look

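Among 50 groups of 4 kidneys checked for a sample that stands apart (Dixon's criterion, where chance gives 2.5), 1 was found. *Akr1a1* in SIK mutant 4 measured 2113 CPM, against 1710 CPM in the nearest and 1639 CPM in the lowest of the other mutants, a gap of 0.85 of the group's range. That value lies within the range of the controls, close to control 2.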

How the results depend on the processing

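Of 14326 genes edgeR called 0. The number called was 71 with DESeq2, 2 by voom, 4 and 5 by limma's trend method on log2(TPM + 1) and log2(TPM + 0.1), 9 without the filter, 21 among kidneys with Y-linked reads, 17 with a Y-linked covariate, 183 with DESeq2 on kidneys with Y-linked reads, and 0 to 1 when 1 kidney was left out. *Gulo* stayed positive in all 20 alternatives, with 0.96 and 2.50 on the 2 TPM scales. *Slc23a2* was 0.28 among kidneys with Y-linked reads, 0.27 with the covariate and 0.27 with DESeq2 on those kidneys, and −0.01 without control 2. *Akr1a1* was positive in 15 and negative in 6 of 21 alternatives, down to −0.21 with the covariate. *Rgn*, *Slc23a1* and *Slc23a3* were negative in every alternative run, with *Slc23a1* at −0.06 on both TPM scales. Among related genes DESeq2 called 1 (*P3h2*), and 0 on kidneys with Y-linked reads. The glucuronate list's median was −0.27, −0.28 and −0.27 in the same 3 settings that moved *Slc23a2*. The causes were not tested. Same-numbered kidneys did not deviate together (r from −0.25 to 0.06). Whether they were littermates cannot be read from this, as controls 1 and 2 stood apart from controls 3 and 4. The replicate block called 0 genes, with *Gulo* at 3.14, *Rgn* −0.12, *Akr1a1* 0.05, *Slc23a1* −0.21, *Slc23a2* 0.07 and *Slc23a3* −0.12. A minimum mean of 50 counts removed *Gulo* and *Rgn*. Depth limits *Gulo* in controls, where 11 reads were counted in all.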
